A study of Mus musculus with 20 samples.

Results

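The genes described here are 10 that respond when protein folding in the endoplasmic reticulum (ER) fails or when translation is throttled by stress: Hspa5, Xbp1, Dnajb9, Herpud1, Atf4, Ddit3, Trib3, Chac1, Asns and Atf3. They were found by matching these symbols to the Ensembl gene identifiers of a table of estimated read counts, in which each had 1 row out of 46517 genes. All 10 passed the filter on low counts in every comparison. The libraries were made from mouse brain white matter, and fall into 4 groups: corpus callosum of Zdhhc9 knockout mice (KO_CCg, 6 libraries), corpus callosum of wild-type mice (WT_CCg, 5), optic nerve of Zdhhc9 knockout mice (KO_ON, 5) and optic nerve of wild-type mice (WT_ON, 4). Zdhhc9 encodes an enzyme that attaches palmitate to proteins. The labels call the mice knockouts, while the series' own design sentence calls them knockdowns, and neither gives the allele, strain, age or sex. Brains and nerves were frozen, the callosum was cut out of frozen coronal sections, and libraries came from a stranded kit that selects polyadenylated RNA.

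Cells answer misfolded protein in the ER with the unfolded protein response, which has 3 sensors in the ER membrane. IRE1 splices the Xbp1 mRNA so that it encodes an active transcription factor, ATF6 is cleaved into one, and PERK phosphorylates the translation factor eIF2α. Phosphorylation of eIF2α is also the point where the integrated stress response begins, when other kinases sense lack of amino acids, double-stranded RNA or lack of heme. It lowers translation in general and raises that of ATF4, a transcription factor for genes of amino acid supply, redox balance and cell death. Oligodendrocytes make large amounts of membrane protein and lipid for myelin, and this response has been studied in them in several myelin disorders. Because ATF4 is controlled by translation and XBP1 by splicing, a summed mRNA count per gene measures the activity of neither, and the spliced and unspliced forms of Xbp1 could not be told apart in these counts.

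The promoters of several of these genes carry the elements through which the response acts, some of the ATF6 and XBP1 arm and some of the ATF4 arm. They did not sort the 10 genes by arm: Xbp1, Dnajb9, Atf4 and Ddit3 held none of those searched for. Each window comes from RefSeq's promoter table on GRCm38.p6 (250 bases before to 50 after the annotated start), is written 5′ to 3′ on the gene's strand, and has the element in capitals. Hspa5 held the ER stress element (CCAAT, then 9 bases of any kind, then CCACG), 65 to 47 bases before the start, at chr2:34772020-34772048 (+). Herpud1 held the second ER stress element (ATTGG, 1 base of any kind, then CCACG), 52 to 42 bases before the start, at chr8:94386368-94386396 (+).
Hspa5: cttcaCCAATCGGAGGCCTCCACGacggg
Herpud1: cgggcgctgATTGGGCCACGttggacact

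Positions are counted from the RefSeq start. That start can differ from the start of the gene bodies given below. For Hspa5, Asns and Atf3 it lies inside the gene body, and so do the windows printed for them. For Chac1 it also lies inside, but the printed window lies before the gene body. Searched on both strands of all 32851 promoters of that length, the first element was in 0.119% and the second in 0.0365%, and no other of the 10 genes held either. The C/EBP-ATF composite element TGATGNAA, to which ATF4 binds with a C/EBP partner, was in 3.97% of all promoters and in 5 of the 10. It lay on the opposite strand in Herpud1 (112 to 105 bases before the start, chr8:94386306-94386335), Chac1 (193 to 186 bases before, chr2:119351038-119351067), Atf3 (110 to 103 bases before, chr1:191183425-191183454) and Trib3 (from 14 bases after the start, chr2:152344028-152344057), so these 4 show its reverse complement. It lay on the same strand in Asns (23 to 16 bases before the start, chr6:7693214-7693243).
Herpud1 composite: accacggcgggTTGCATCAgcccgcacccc
Chac1: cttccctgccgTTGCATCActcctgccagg
Atf3: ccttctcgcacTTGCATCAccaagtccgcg
Trib3: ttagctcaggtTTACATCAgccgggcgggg
Asns: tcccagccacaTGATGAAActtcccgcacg

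Herpud1, Chac1 and Atf3 shared the same 8 letters, and Herpud1 alone held elements of both kinds. The cyclic AMP response core TGACGT was in 7.51% of all promoters and in those of Atf3 and Hspa5. A match is a stretch of letters and not a measured binding site, and no match says only that these letters were not in the window. Gene bodies on mm10 are, in the order above, Hspa5 (ENSMUSG00000026864.12) at chr2:34771970-34777547, Xbp1 at chr11:5520659-5525893, Dnajb9 at chr12:44205559-44210326, Herpud1 at chr8:94386438-94395377, Atf4 at chr15:80255184-80257541, Ddit3 at chr10:127290774-127296288, Trib3 at chr2:152337422-152344032, Chac1 at chr2:119351229-119354381, Asns at chr6:7675169-7693254 and Atf3 at chr1:191170296-191218039. The annotation has a second gene model named Ddit3 over the same locus that is not a row matched here, so reads could have been divided between them.

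Column totals ranged from 15401130 to 26095622 estimated reads. Levels are given as CPM, reads of a gene scaled to a common library total, with trimmed-mean (TMM) factors over all 20 libraries, and they are not divided by length, so levels of different genes are not compared. Zdhhc9 itself was at 40.8 to 56.0 CPM in the 6 knockout callosum libraries against 153 to 201 in wild type, and at 35.1 to 51.4 in knockout nerve against 115.0 to 150.4 in wild type, with no overlap. Both tissues had the oligodendrocyte markers of white matter, and the summed level of 12 neuron markers ran from 1296 to 5295 CPM in callosum and from 273 to 553 in nerve. Fibroblast markers summed to 63.1 to 91.9 CPM in callosum and 1642 to 3094 in nerve, and library KO_ON_719856 stood apart with 60.3 CPM of 5 retina markers against 2.67 to 5.99 in the other nerve libraries. Callosum libraries carry either 2-digit or longer numbers, whose meaning the labels do not give. Nothing in the labels says that libraries of a group came from different animals, so p-values measure the spread between these libraries.

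The first comparison asks whether loss of Zdhhc9 went with a stress response in either white matter tract. None of the 10 genes passed the test in callosum or in optic nerve (edgeR's quasi-likelihood test, Benjamini-Hochberg adjusted p under 0.05 over all genes tested). Knockout and wild-type libraries overlapped for each of the 10 genes in both tissues. The share of all tested genes that passed was itself 0.0387% in callosum and 0.0129% in nerve, so a count of 0 among 10 is near the background. At an unadjusted p under 0.05, 0 of the 10 passed in callosum, where 1816 of all 15519 genes did, and 2 passed in nerve, Ddit3 and Trib3, where 852 of 15556 did. DESeq2 called none of the 10 in either tissue. limma-voom with sample quality weights called 1, Asns in callosum, among 2786 of 15519 genes. The share of all genes whose knockout and wild-type libraries did not overlap was 0.902% in callosum and 2.07% in nerve. The median log2 fold change of the 10, knockout over wild type, was -0.06 in callosum and 0.13 in nerve, against -0.01 and 0.01 over all genes tested.

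**Figure D1:**
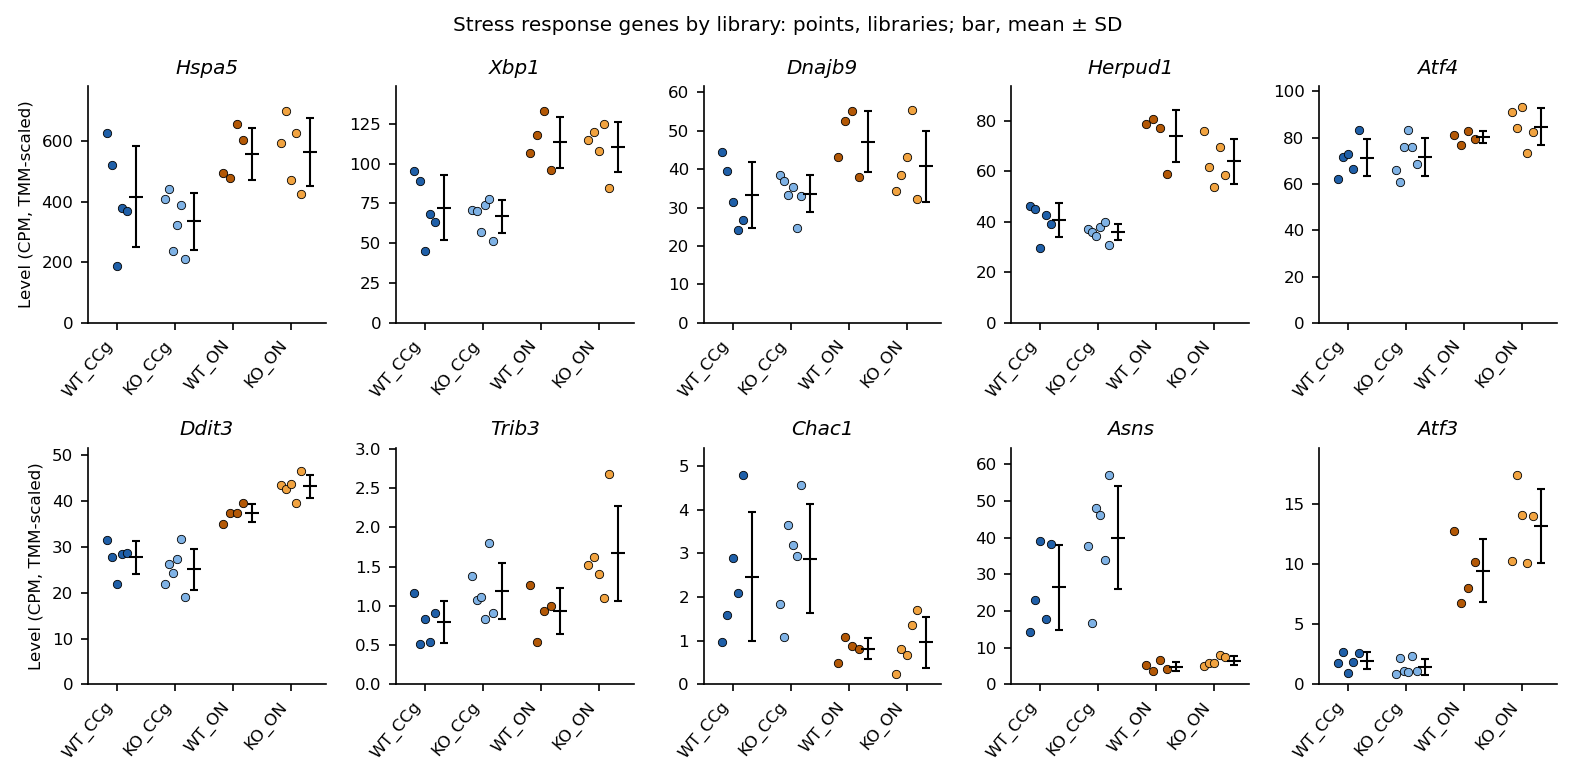
Level of each of the 10 genes (vertical axes, CPM with TMM scaling, each from 0) in each library of the 4 groups (horizontal axes). Points are libraries and bars mean ± SD. Wild-type and knockout points overlap in every panel within a tissue, Asns sits below 10 CPM in the nerve only, and all Atf3 points of the nerve lie above those of the callosum.

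Among the genes of the ER itself, Hspa5 encodes BiP, the main ER chaperone of the Hsp70 family and the protein that keeps the 3 sensors off. Wild-type callosum libraries had 186.5, 369, 379, 522 and 628 CPM, and knockout ones ran from 210.4 through a median of 355 to 441. Wild-type nerve libraries had 479, 495, 603 and 658 CPM, and knockout ones 425, 473, 595.5, 627 and 699. The wild-type callosum libraries alone spanned the whole range of the callosum. The log2 fold change by genotype was -0.32 ± 0.28 (SE; 95% interval -0.93 to 0.29; adjusted p = 0.64) in callosum. In nerve it was below 0.01 in size with a 95% interval of -0.35 to 0.34 (adjusted p = 0.996), which bounds a change of BiP mRNA more tightly there than in callosum.

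Xbp1, the transcription factor of the IRE1 arm, had 45.2, 63.6, 68.2, 89.1 and 95.5 CPM in wild-type callosum. Knockout callosum ran from 51.2 through a median of 70.6 to 77.8 CPM, inside the wild-type range. Its log2 fold change was -0.12 ± 0.18 in callosum (95% interval -0.51 to 0.27) and -0.05 ± 0.13 in nerve (-0.33 to 0.23). Dnajb9 encodes ERdj4, a co-chaperone of BiP and a standard target of XBP1. Its group means were 33.6 ± 4.81 CPM (SD, n = 6) in knockout and 33.3 ± 8.55 (n = 5) in wild-type callosum, and 40.8 ± 9.24 (n = 5) and 47.2 ± 8.01 (n = 4) in nerve. Herpud1 encodes a membrane protein of the machinery that degrades misfolded ER proteins. Its log2 fold change was -0.18 ± 0.12 in callosum (95% interval -0.43 to 0.08; adjusted p = 0.55) and -0.23 ± 0.12 in nerve (-0.48 to 0.03; adjusted p = 0.85). None of these 3 passed, and no interval of the 4 ER genes reached a log2 change of 1 in either direction.

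In the ATF4 arm, Atf4 itself was the steadiest of the 10 in wild-type nerve, at 76.9, 79.6, 81.1 and 83.0 CPM. Its log2 fold change by genotype was within 0.01 of 0 in callosum (95% interval -0.22 to 0.22) and 0.06 ± 0.08 in nerve (-0.12 to 0.24). Ddit3 encodes CHOP, a transcription factor of stress-induced cell death. It had 34.9, 37.3, 37.5 and 39.6 CPM in wild-type nerve and 39.6, 42.6, 43.6, 43.7 and 46.5 in knockout nerve. Only KO_ON_717651 reached down to the highest wild-type library there. The log2 fold change was 0.19 ± 0.08 in nerve (95% interval 0.03 to 0.36; unadjusted p = 0.0258, adjusted p = 0.845) and -0.15 ± 0.13 in callosum (-0.44 to 0.14; adjusted p = 0.645).

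Trib3 encodes a pseudokinase induced by ATF4 and CHOP. Its levels were low, with 10 to 47 estimated reads per library. Knockout nerve had 1.10, 1.41, 1.52, 1.62 and 2.68 CPM and wild-type nerve 0.54, 0.93, 0.996 and 1.27. All knockout nerve libraries but KO_ON_717651 lay above all wild-type ones. The highest value was that of KO_ON_719856, which carried the retina markers; their part in this result was not tested, and without that library the log2 fold change in nerve went from 0.80 ± 0.34 (95% interval 0.06 to 1.55; unadjusted p = 0.0372, adjusted p = 0.845) to 0.58. In callosum, where knockout libraries ran from 0.83 through a median of 1.10 to 1.80 CPM and wild-type ones were at 0.51, 0.54, 0.83, 0.91 and 1.16, it was 0.59 ± 0.29 (-0.04 to 1.21; adjusted p = 0.447). Trib3 thus had the largest positive estimate of the 10 genes in nerve and, with Asns, in callosum, and did not pass in either.

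Chac1 encodes an enzyme that breaks down glutathione, and is a target of ATF4 and CHOP. Its 6 to 30 estimated reads per nerve library make the nerve estimate imprecise, 0.19 ± 0.49 with a 95% interval of -0.88 to 1.27. In callosum the estimate was 0.20 ± 0.41 (-0.69 to 1.09). Asns encodes asparagine synthetase, the enzyme that makes asparagine and a textbook ATF4 target. Wild-type callosum had 14.2, 17.8, 22.9, 38.4 and 39.2 CPM, and knockout callosum ran from 16.8 through a median of 42.0 to 57.1. The upper 3 knockout libraries lay above all wild-type ones and the lowest knockout library lay among the lowest wild-type ones. The log2 fold change was 0.58 ± 0.32 (95% interval -0.12 to 1.28; adjusted p = 0.488) in callosum and 0.39 ± 0.21 (-0.08 to 0.86; adjusted p = 0.845) in nerve. With limma-voom and sample quality weights, a setting that called 2786 genes in callosum in place of 6, Asns passed there, at 0.94 with adjusted p = 0.0279. A fit that also held the neuron marker level gave 0.03 in callosum.

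Atf3 encodes a stress-inducible transcription factor that ATF4 can induce and that injured neurons are known to express. Wild-type nerve had 6.77, 8.04, 10.2 and 12.7 CPM and knockout nerve 10.1, 10.3, 14.0, 14.1 and 17.4. Its log2 fold change was 0.46 ± 0.22 in nerve (95% interval -0.01 to 0.94; adjusted p = 0.845) and -0.47 ± 0.34 in callosum (-1.21 to 0.27; adjusted p = 0.576). In one fit of all 20 libraries, the difference between the 2 tissues' genotype effects was 0.94 ± 0.42 for Atf3 (0.06 to 1.82; adjusted p = 0.725). For Ddit3 it was 0.35 ± 0.16 (0.01 to 0.69; adjusted p = 0.725). These were the 2 of the 10 with an unadjusted p under 0.05, and no difference passed after adjustment, for the 10 or for any gene (0% of those tested). That fit called 0 of 16440 genes, with 1123 at an unadjusted p under 0.05.

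**Figure D2:**
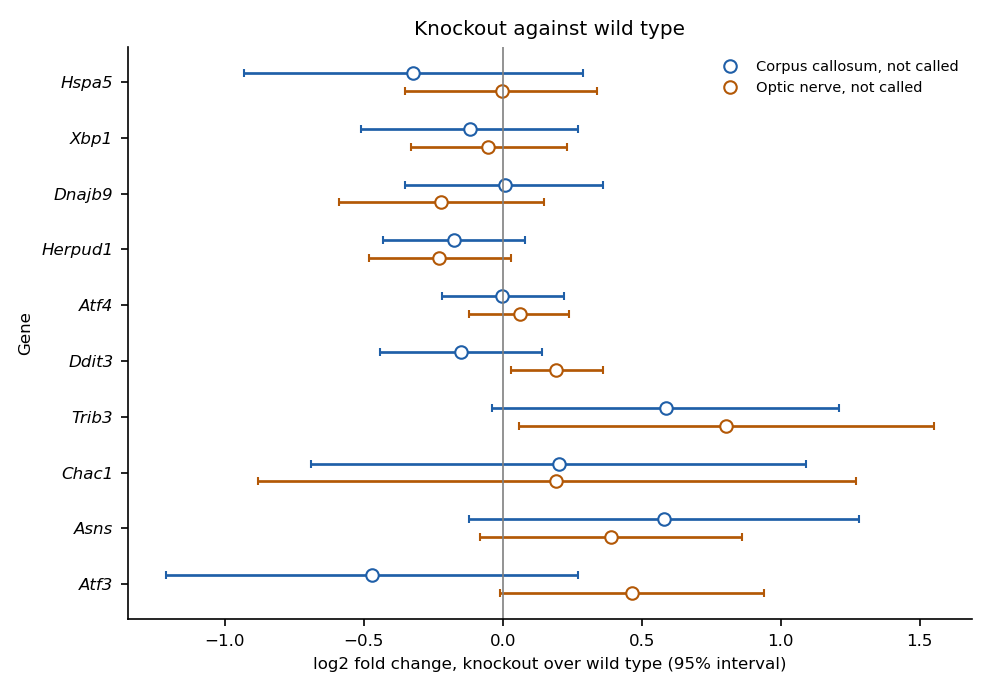
log2 fold change, knockout over wild type (horizontal axis), of each of the 10 genes (vertical axis) in callosum and in nerve, with 95% intervals as bars. All circles are open because no gene passed at adjusted p 0.05, and the intervals of Ddit3 and Trib3 in nerve lie above 0 before adjustment.

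The genes around these 10 in the response, taken from 7 lists, did not pass either. In callosum, 0 of 21 sensors and switches, 0 of 20 ER chaperones and folding enzymes, 0 of 16 genes of ER-associated degradation, 0 of 18 of ER translocation and secretory transport and 0 of 31 ATF4 targets tested were called. The same held for the 12 cytosolic heat shock and 16 immediate early genes, and for all 7 lists in nerve. At an unadjusted p under 0.05, edgeR passed 0 to 5 genes of a list in callosum, beside 1816 of all 15519 genes, and 0 to 3 in nerve, beside 852 of 15556. The callosum medians of the first 5 lists ran from -0.07 to -0.23, beside a median of -0.01 over all genes. Estimates were negative for 15 of 20 chaperones and 15 of 18 translocation genes. Of all genes tested in callosum, 47.5% had a positive estimate. For the heat shock list the median was -0.35 with all 12 estimates negative. The immediate early list went the other way, with 13 of 16 estimates positive and a median of 0.16. In nerve its 15 tested genes were all positive with a median of 0.35, where 52.8% of all genes had a positive estimate. The nerve medians of the other 6 lists ran from -0.10 to 0.06, beside 0.01 over all genes. In the callosum comparison the 12 neuron marker estimates were all positive with a median of 0.65, as were the 8 of striatal neurons (0.85). Those of 10 oligodendrocyte markers were all negative with a median of -0.50. The 6 oligodendrocyte precursor (-0.25) and 7 microglia (-0.34) marker estimates were all negative too. No marker of these lists was called, and the part of cell makeup in the list medians was not tested. The smallest p of each list in callosum belonged to Creb3l2 (-0.34), Sil1 (-0.27), Edem2 (-0.33), Sec61a1 (-0.20), Mthfd2 (-0.50), Hspb1 (-0.64) and Npas4 (0.56), none of them called. In nerve it belonged to Ppp1r15b (-0.24), Pdia4 (-0.24), Os9 (0.16), Ssr3 (-0.24), Pycr1 (0.44), Dnajb1 (-0.23) and Jun (0.27), also not called.

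The 2 tissues differed far more than the genotypes, and the 10 genes did not differ in one direction. In wild type, Atf3, Herpud1, Xbp1, Dnajb9 and Ddit3 were higher in optic nerve, Asns and Chac1 were higher in callosum, and Hspa5, Atf4 and Trib3 were not called. In knockout, 6 were higher in nerve (Atf3, Herpud1, Ddit3, Hspa5, Xbp1 and Atf4) and the same 2 were higher in callosum. Of all genes tested, 25.3% were higher and 26% lower in nerve in wild type, and 31.9% higher and 31% lower in knockout, so calls in either direction are common here. The wild-type and knockout contrasts use different libraries. Both treat libraries that share a number across tissues as separate. With that number as a block, the wild-type calls of Dnajb9, Herpud1, Ddit3, Chac1 and Atf3 were lost. The groups did not overlap in either contrast for Xbp1, Herpud1, Ddit3, Asns and Atf3, beside 42.5% of all genes in wild type and 43.4% in knockout.

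**Figure D3:**
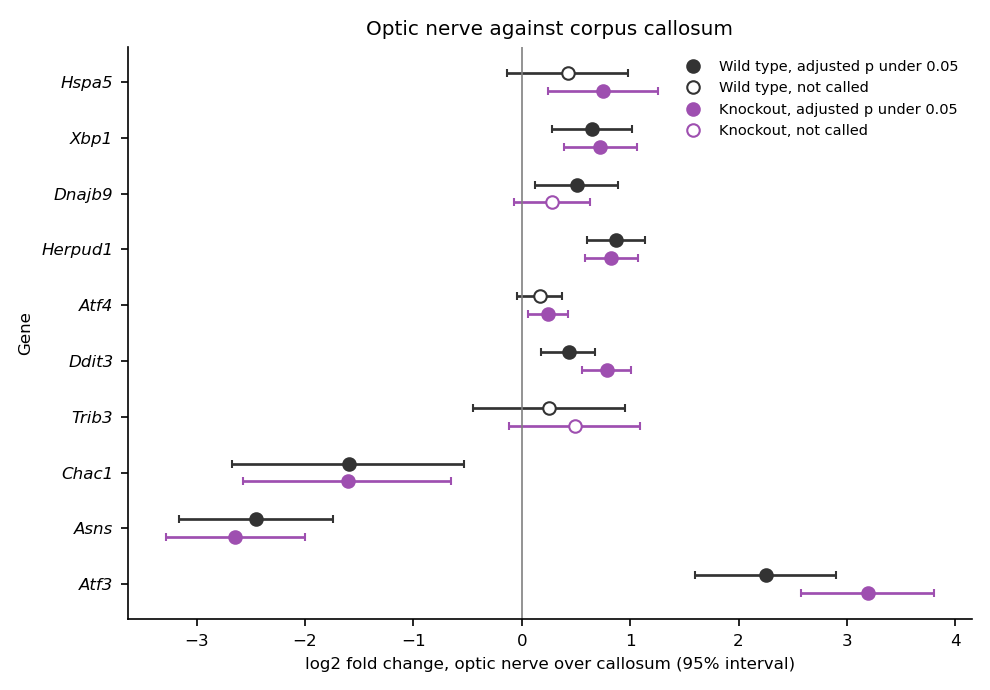
log2 fold change, optic nerve over callosum (horizontal axis), of each of the 10 genes (vertical axis) in wild type and in knockout, with 95% intervals as bars and filled circles at adjusted p under 0.05. Asns and Chac1 lie left of 0 and Atf3 far to the right in both genotypes.

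Atf3 had the largest difference towards the nerve. Wild-type callosum libraries were at 0.95, 1.78, 1.85, 2.60 and 2.72 CPM against 6.77 to 12.7 in wild-type nerve, a log2 fold change of 2.25 ± 0.31 or 4.76-fold (95% interval 1.60 to 2.90; adjusted p = 4.71e-06). Knockout callosum ran from 0.87 through a median of 1.10 to 2.39 CPM against 10.1 to 17.4 in knockout nerve, 3.19 ± 0.29 or 9.15-fold (2.58 to 3.8; adjusted p = 1.11e-08). The lowest nerve library was above the highest callosum library by more than the range of the callosum libraries. Atf3 is also an immediate early gene, and the called genes of that list were mostly, not all, lower in nerve. Of 16 tested, 1 was higher and 8 lower in wild type, and 5 higher and 9 lower in knockout. The medians were -1.01 and -0.88. Over all genes tested, 25.3% were higher and 26% lower in wild type, and 31.9% and 31% in knockout. Named after its values were seen, Ier2 was higher in both genotypes (0.66 in wild type, 0.97 in knockout). In knockout Fos (1.02), Dusp1 (0.71), Fosl2 (0.65) and Jun (0.485) were higher too. Egr1, an immediate early transcription factor, was at 12.8 ± 8.55 CPM in wild-type nerve (SD, n = 4) and 88.1 ± 12.6 in wild-type callosum (n = 5). Npas4 and Egr4, which neurons induce on activity, were at 0.64 and 0.20 CPM in wild-type nerve against 12.6 and 20.7 in callosum.

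Of the ER genes, Herpud1 was the most clearly separated. It had 29.5, 39.0, 42.9, 45.1 and 46.2 CPM in wild-type callosum and 58.9, 77.3, 78.8 and 80.9 in wild-type nerve. Knockout callosum ran from 31.0 through a median of 36.6 to 40.0 CPM, and knockout nerve had 53.9, 58.7, 61.6, 69.5 and 76.1. All 9 nerve libraries lay above all 11 callosum libraries. The log2 fold change was 0.87 ± 0.13 in wild type (95% interval 0.60 to 1.14; adjusted p = 1.11e-05) and 0.83 ± 0.12 in knockout (0.58 to 1.07; adjusted p = 3.97e-06).

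Xbp1 was at 95.8, 106, 118 and 133 CPM in wild-type nerve and at 85.0, 108, 115, 119.8 and 125 in knockout nerve. The lowest wild-type nerve library lay just above the highest wild-type callosum library. The log2 fold change was 0.65 ± 0.18 in wild type (adjusted p = 0.00441) and 0.72 ± 0.16 in knockout (adjusted p = 0.000593). For Hspa5 it was 0.42 ± 0.27 in wild type (95% interval -0.14 to 0.98; adjusted p = 0.202) and 0.75 ± 0.24 in knockout (0.24 to 1.26; adjusted p = 0.0107). Without the callosum libraries with 2-digit numbers the wild-type Hspa5 value was 0.84 and passed (adjusted p = 0.0109). Dnajb9 passed in wild type (0.51 ± 0.18; adjusted p = 0.026) and not in knockout (0.28 ± 0.17; adjusted p = 0.147). Its wild-type call was lost without WT_CCg_7198587 (adjusted p = 0.0652), WT_ON_701297 (0.0544) or WT_ON_717652 (0.0886). The difference of these tissue effects between genotypes is the same contrast as the interaction given above, and it was not called for Hspa5 (adjusted p = 0.871) or Dnajb9 (adjusted p = 0.87).

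In the ATF4 arm the direction depended on the gene. Ddit3 had 21.9, 27.7, 28.5, 28.8 and 31.6 CPM in wild-type callosum against 34.9 to 39.6 in wild-type nerve, and 19.0 through a median of 25.3 to 31.8 in knockout callosum against 39.6 to 46.5 in knockout nerve. Its log2 fold change was 0.43 ± 0.12 in wild type (adjusted p = 0.00515) and 0.78 ± 0.11 in knockout (adjusted p = 3.19e-06). Atf4 was at 0.17 ± 0.10 in wild type (adjusted p = 0.164) and 0.24 ± 0.09 in knockout (adjusted p = 0.0234). The knockout call of Atf4 was not stable: it was lost in 10 of 20 alternatives, among them no filter on low counts (adjusted p = 0.0689), limma-voom (0.0617), callosum libraries with longer numbers only (0.121) and leaving out KO_CCg_27 (0.126), KO_CCg_29 (0.0557), KO_CCg_719856 (0.101), KO_ON_48038A7 (0.0597) or KO_ON_693452 (0.0657). Trib3 was not called in wild type (0.25 ± 0.33) or in knockout (0.49 ± 0.29; adjusted p = 0.151).

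Asns had the largest difference towards the callosum. It was at 3.51, 4.22, 5.14 and 6.53 CPM in wild-type nerve against 14.2 to 39.2 in wild-type callosum, a level 5.47-fold lower in nerve (log2 -2.45 ± 0.34; 95% interval -3.16 to -1.74; adjusted p = 5.04e-06). Knockout nerve had 5.13, 5.71, 5.77, 7.48 and 8.09 CPM against 16.8 to 57.1 in knockout callosum, 6.24-fold lower (log2 -2.64 ± 0.31; adjusted p = 2.95e-07). The highest nerve library was below the lowest callosum library by a factor smaller than the spread within the callosum. Chac1 was lower in nerve at log2 -1.60 ± 0.51 in wild type (adjusted p = 0.0132) and -1.61 ± 0.46 in knockout (adjusted p = 0.00475). Its groups overlapped, with 0.96 to 4.79 CPM in wild-type callosum and 0.50 to 1.09 in wild-type nerve. The wild-type call was lost without WT_CCg_7198587, its highest library (adjusted p = 0.0508). The composite element printed above was thus held by genes higher in callosum (Asns and Chac1), by genes higher in nerve (Atf3 and Herpud1) and by 1 that was not called (Trib3).

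The cell types of the tissues differed along with these genes. All 12 neuron markers were lower in nerve in knockout and 11 of 12 in wild type, while 7 of 7 microglia, 5 of 5 endothelial and 6 of 6 fibroblast markers were higher in both genotypes. Microglia markers summed to 338 to 508 CPM in callosum and 829 to 1321 in nerve. Astrocyte markers summed to 3374 to 4675 CPM in callosum and 8196 to 11700 in nerve, but did not all differ in that direction. Of 7 astrocyte markers, 3 were called higher and 2 lower in nerve in wild type, with a median log2 fold change of 0.04. In knockout 4 were higher and 2 lower, with a median of 0.41. Of 10 oligodendrocyte markers, 0 were called higher and 2 lower in nerve in wild type, with a median of 0.10. In knockout 6 of them were higher and 1 lower, with a median of 0.43. No marker of these lists was at 0 in all libraries of a group. In bulk RNA, more or fewer cells of a type and more or less RNA per cell cannot be told apart, and the part of cell makeup in the tissue differences of the 10 genes was not tested.

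Within the callosum some of the 10 genes ran with or against the neuron marker level from library to library, and others did neither. Asns followed it closely: ordered by the summed neuron markers (1296 to 5295 CPM), the 11 libraries had 14.2, 16.8, 17.8, 22.9, 34.0, 37.8, 38.4, 39.2, 48.2, 46.3 and 57.1 CPM of Asns. Of 55 pairs of callosum libraries, 54 had Asns and the neuron sum in the same order. Knockout and wild-type libraries lay on the same course, with the 3 highest neuron sums and the 3 highest Asns levels in knockout libraries. Chac1 was in the same order in 46 pairs and Atf4 in 40. Of the 4 ER genes, 3 ran the other way: Hspa5 was in the opposite order in 46 of 55 pairs, Herpud1 in 42 and Xbp1 in 41, and Ddit3 was opposite in 38. Dnajb9 and Trib3 were in the same order in 24, and Atf3 in 21. These orders are over libraries that share the scaling of counts to a common total, and no test was made of them. The same orders were not counted over all genes, so they are not shown to be particular to the 10.

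**Figure D4:**
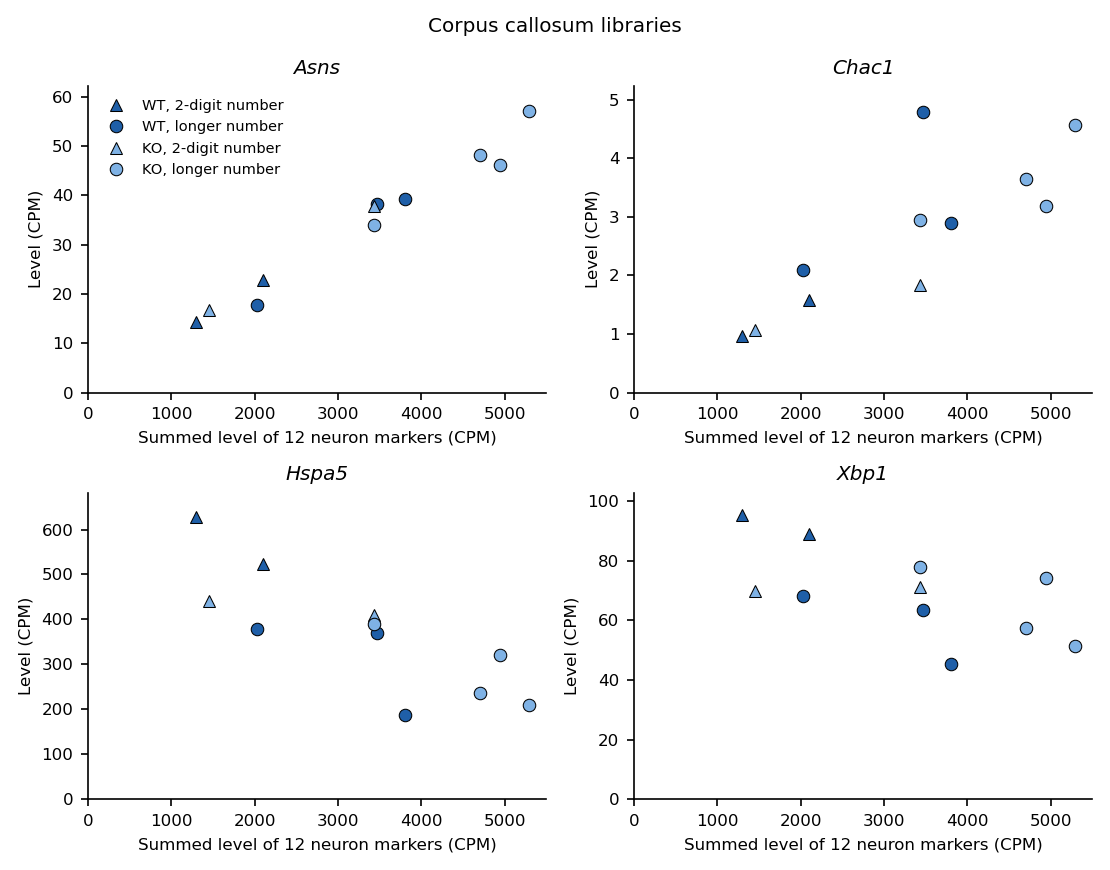
Level of Asns, Chac1, Hspa5 and Xbp1 (vertical axes, CPM) against the summed level of 12 neuron markers (horizontal axes, CPM) in the 11 callosum libraries, by genotype (colour) and number format (shape). Asns climbs from 14.2 to 57.1 CPM along the neuron sum, while the highest Hspa5 values are at the lowest neuron sums.

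Hspa5 shows the reverse course in the values: in the same library order it was at 628, 441, 379, 522, 389, 411, 369, 186.5, 237, 322 and 210.4 CPM. The oligodendrocyte marker sum also ran broadly opposite to the neuron sum, from 90830 CPM in the library with the lowest neuron sum to 34350 in that with the highest. In a fit that also held the neuron marker level, the callosum genotype estimates were 0.10 for Hspa5, 0.11 for Xbp1, -0.07 for Herpud1, -0.05 for Ddit3, -0.27 for Atf3, -0.46 for Chac1 and 0.66 for Trib3. Of the 10, Trib3 had the highest estimate in that fit. Levels of Hspa5, Dnajb9 and Chac1 did not overlap between the number formats of the libraries. The share of all genes without overlap between the formats was not counted, so this is not shown to be particular to these genes. The 4 callosum libraries with 2-digit numbers had 411 to 628 CPM of Hspa5, 36.9 to 44.4 of Dnajb9 and 0.96 to 1.84 of Chac1. The 7 with longer numbers had 186.5 to 389, 24.1 to 35.4 and 2.09 to 4.79 CPM. Within the 2-digit libraries the genotype estimates were -0.40 for Hspa5, 0.60 for Asns and 0.63 for Trib3, and within the longer ones -0.12, 0.53 and 0.59. In the nerve, where neuron sums were low, the 3 libraries with the highest of them (480, 512 and 553 CPM) also had the 3 highest Asns levels (8.09, 6.53 and 7.48).

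Library KO_ON_719856 was at 1 end of the nerve libraries in several of the 10 genes. For Herpud1, Atf4, Asns and Atf3 it was at neither end. None of its values was flagged as standing apart from its group, and the same was not counted over all genes. It had the highest Trib3 (2.68 CPM), Chac1 (1.71) and Ddit3 (46.5) of the 9 nerve libraries, and the lowest Hspa5 (425), Xbp1 (85.0) and Dnajb9 (32.3). It was also the library with 60.3 CPM of retina markers and the lowest oligodendrocyte sum of the nerve, 60170 CPM. Without it, the nerve genotype estimates were 0.58 for Trib3, -0.10 for Chac1, 0.17 for Ddit3, 0.09 for Hspa5 and 0.03 for Xbp1, and none passed.

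The wider lists give mRNA levels of genes around the response in the 2 tissues, and not the activity of its branches. Their counts stand beside shares over all genes tested of 25.3% higher and 26% lower in nerve in wild type. In knockout these shares were 31.9% and 31%. ER chaperones and folding enzymes were mostly higher in nerve: 12 of 20 were called higher and 1 lower in wild type, and 18 higher and 2 lower in knockout, with medians of 0.44 and 0.62 beside -0.03 and -0.001 over all genes. By smallest p these included Txndc5, a disulfide isomerase (1.04 ± 0.12 in wild type, 1.03 ± 0.11 in knockout), Sil1, a nucleotide exchange factor for BiP (0.75 ± 0.11 and 1.12 ± 0.10), and in wild type Dnajc10, a reductase of misfolded proteins (0.70 ± 0.10). The exceptions, named after their values were seen, were the ER oxidases Ero1b (-0.44 in wild type, -0.53 in knockout) and, in knockout, Ero1a (-0.22). Translocation and secretory transport showed the same pattern with no gene lower: 11 of 18 higher in wild type and 14 in knockout, medians 0.39 in both. Srpr, a subunit of the receptor for the signal recognition particle, was at 113 ± 6.10 CPM in wild-type nerve (SD, n = 4) and 60.1 ± 2.08 in wild-type callosum (n = 5). Sec61a1, the channel of the translocon, was at 141 ± 2.52 and 90.2 ± 6.88.

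In ER-associated degradation 7 of 16 were higher and 0 lower in wild type, and 9 higher and 1 lower in knockout. The medians were 0.15 and 0.24. Over all genes tested, 25.3% were higher and 26% lower in wild type, and 31.9% and 31% in knockout. Derl1 and Selenos, which belong to the complex that exports proteins for degradation, were higher by 0.46 and 0.62 in wild type and by 0.58 and 0.86 in knockout. The 1 lower gene, named after its value was seen, was the ubiquitin-conjugating enzyme Ube2j1 (-0.57 in knockout). Of 21 sensors and switches, 8 were higher and 1 lower in wild type and 12 higher and 2 lower in knockout. Their medians were 0.11 and 0.275. The smallest p values belonged to Eif2ak2, the kinase that senses double-stranded RNA (1.39 ± 0.14 in wild type, 1.62 ± 0.13 in knockout), Ern1, which encodes IRE1 (0.75 ± 0.12 and 0.92 ± 0.11), and Creb3l2, a membrane-bound relative of ATF6 (0.82 ± 0.15 and 1.14 ± 0.14). The exceptions, named after their values were seen, were Mbtps2, a protease that cleaves ATF6 (-0.35 in wild type, -0.48 in knockout), and in knockout Atf6 itself (-0.24).

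**Figure D5:**
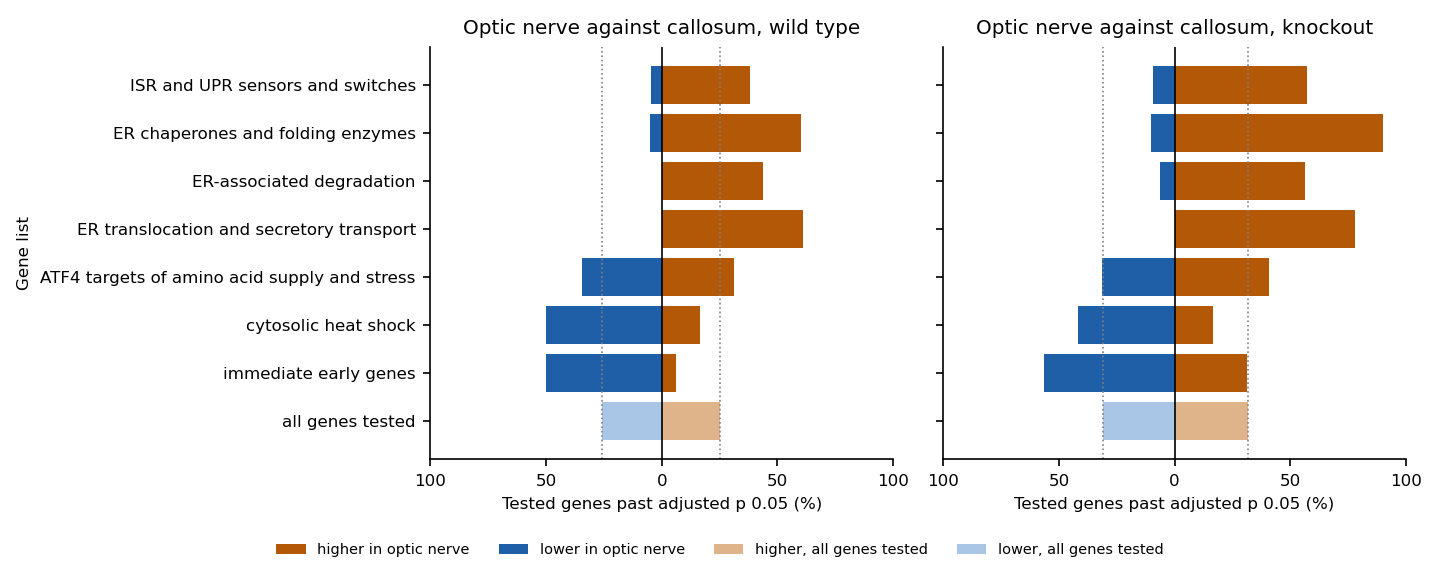
Percent of the tested genes of each list (vertical axis) that passed at adjusted p 0.05 and were higher (right of 0) or lower (left of 0) in optic nerve than in callosum, in wild type and in knockout. Dotted lines mark the same shares over all genes tested (25.3% and 26% in wild type, 31.9% and 31% in knockout), and the 4 ER and sensor lists lie to the right while the last 2 stress lists lie mostly to the left.

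ATF4 targets of amino acid supply were called in both directions in near equal numbers. Of 32 tested, 10 were higher and 11 lower in nerve in wild type, and 13 higher and 10 lower in knockout. The medians were -0.05 and 0.15. Shares over all genes tested were 25.3% higher and 26% lower in wild type, and 31.9% and 31% in knockout. Those with the smallest p were higher in nerve. Nupr1, a small stress-induced chromatin protein, was at 107 ± 26 CPM in wild-type nerve (SD, n = 4) and 2.24 ± 0.74 in wild-type callosum (n = 5), a log2 fold change of 5.54 ± 0.24. Slc7a11, the cystine transporter that feeds glutathione synthesis, was at 163.5 ± 24.9 and 29.7 ± 5.58 CPM. Slc1a5, a glutamine transporter, was higher by 2.48 ± 0.17 in wild type and 2.44 ± 0.16 in knockout. Of the lower genes, those with the smallest adjusted p in wild type were named after their values were seen. They were Pycr1 (-1.63 in wild type, -1.025 in knockout), Aldh18a1 (-0.81 and -0.54) and Stc2 (-2.24 and -2.07). Cytosolic heat shock genes went mostly the other way: 6 of 12 were lower and 2 higher in wild type, 5 lower and 2 higher in knockout. The 2 higher genes were the small heat shock protein Hspb1 (94.8 ± 8.93 against 14.1 ± 4.96 CPM in wild type) and its partner co-chaperone Bag3 (72.8 ± 8.97 against 23.4 ± 8.56). Hsph1, which encodes Hsp105, was lower at 143 ± 22.0 against 381 ± 135 CPM.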

How the data were processed

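The authors deposited 1 table of estimated counts per gene (expected counts, of which 30.14% of values above 0 are whole, and not scaled) for 20 libraries; RNA came from frozen tissue with a stranded mRNA kit, per the labels' protocols. The submitters' processing notes name mm10 as the genome build. Of the quantifier and its annotation, the version is not given in the sources used here. Libraries were grouped by the tissue and genotype of their labels. Counts were rounded, low genes removed by filterByExpr at its minimum count of 10 and minimum total of 15, and libraries scaled by TMM in edgeR 4.0.16 (R 4.3.3). Each tissue was fitted apart with the quasi-likelihood test for genotype, which tested 15519 genes in callosum and 15556 in nerve. A fit of all 20 libraries in 4 groups (16440 genes) gave the tissue contrasts and the difference of genotype effects. Each standard error is the fold change divided by the root of its F statistic. The alternatives were DESeq2 1.42.0 and its size factors, limma-voom (limma 3.58.1) with sample quality weights, and no filter or 1 CPM. Further ones were number format or neuron markers as covariates, subsets, a replicate block and omission of each library in turn. The fit was also run on simulated independent counts with the same spread for all genes. That outcome is not reported here and does not bear on these libraries. Symbols came from GENCODE vM21 by identifier for 46005 of 46517 genes, and 0 pairs of libraries were identical. The 10 genes, the lists, the motifs and the tests were chosen with earlier results of these data known. All 10 genes and Zdhhc9 are named always, and from each list up to 3 called genes with the smallest p, or 1 where none was called. List genes beyond these are marked as named after their values were seen.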

Additional observations from a re-analysis of the deposited data

Results flagged for a closer look

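1 value stood apart from its group. Herpud1 in the wild-type optic nerve library WT_ON_719857 was at 58.9 CPM, while the other 3 wild-type nerve libraries were at 77.3 to 80.9 CPM, a gap that takes up most of the group's range. It was found among 40 groups of libraries looked at in this way (10 genes in 4 groups), of which chance gives about 1 in 20. Without that library the log2 fold change of Herpud1 in nerve, knockout over wild type, went from -0.23 to -0.32, and it still was not called.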

How the results depend on the processing

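Of 1009 alternative values for the 50 results of the 10 genes, 932 kept their direction and their side of the threshold, 19 lost a call, 3 gained one and 55 changed sign, none of the last in the tissue comparisons. The count of genes changed by genotype in callosum, 6, depended most on the setting: 174 with DESeq2, 2786 with limma-voom and sample quality weights, 10 with number format as a covariate, 2 with longer numbers only, 0 with 2-digit numbers only, 41 in the fit of all 20 libraries, and 2 to 41 with 1 library left out (KO_CCg_27, KO_CCg_29, KO_CCg_693451, KO_CCg_719856, WT_CCg_28, WT_CCg_30, WT_CCg_685232, WT_CCg_717652 or WT_CCg_7198587; 41 without WT_CCg_685232). The count in nerve went from 2 to 35 with DESeq2, and that of genotype effects differing between tissues from 0 to between 0 and 1 with 1 library left out (1 without KO_ON_717651). Sign changes, none of them called, were for Atf4 in callosum 0.015 with DESeq2 size factors, 0.014 with DESeq2, 0.081 with limma-voom, 0.014 with longer numbers only and 0.008 in the joint fit; for Hspa5 in nerve 0.138 with limma-voom and 0.013 in the joint fit; for Chac1 in nerve -0.195 and the Atf4 difference of genotype effects between tissues -0.011 with limma-voom; for Xbp1 in callosum 0.126 with longer numbers only; for Dnajb9 in callosum -0.119 with 2-digit numbers only; and with neuron markers as a covariate, in callosum, 0.1 for Hspa5, 0.109 for Xbp1 and -0.46 for Chac1. With 1 library left out, callosum estimates ran from -0.248 to 0.002 for Xbp1, -0.089 to 0.129 for Dnajb9 and -0.047 to 0.083 for Atf4, nerve estimates from -0.093 to 0.088 for Hspa5, -0.122 to 0.033 for Xbp1 and -0.104 to 0.450 for Chac1, and differences of the genotype effects (nerve minus callosum) from -0.048 to 0.201 for Xbp1, -0.184 to 0.052 for Herpud1 and -0.396 to 0.246 for Chac1. The cause was not tested. With the number of the labels as a replicate block, which ties wild-type tissues through 1 pair only, 2670 genes differed between tissues in wild type in place of 8429 and 4 had genotype effects that differed between tissues in place of 0. Under the block that difference of genotype effects was -0.045 for Hspa5, -0.318 for Xbp1, -0.197 for Atf4 and -0.24 for Trib3. In wild type, nerve over callosum, the block moved Asns from -2.45 to -1.447 (adjusted p = 0.0355), and Dnajb9, Herpud1 (adjusted p = 0.0538), Ddit3, Chac1 and Atf3 (0.0561) were not called. The genotype groups of 1 tissue share no number. Deviations of the 4 same-numbered pairs from their group means correlated between -0.202 and 0.171. Of these 8 libraries, 2 correlated best with their own number. The main fits therefore did not pair libraries by number. So few pairs cannot exclude that libraries with the same number came from the same animal. Low counts limit the precision of Chac1, with 6 to 116 estimated reads a library, and Trib3, with 10 to 47.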
